A study of Mus musculus with 6 samples.

Results

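The 9 genes described here encode the vascular endothelial growth factor (VEGF) ligands (*Vegfa*, *Vegfb*, *Vegfc*, *Vegfd* and *Pgf*), the angiopoietins *Angpt1* and *Angpt2*, and the neuropilins *Nrp1* and *Nrp2*. They were chosen by gene name from the 55416 genes of the deposited table, and each name matched 1 row, so the provision to take the row with the highest mean level was not needed. RNA was sequenced from satellite cells (SCs), the stem cells of skeletal muscle, in 3 libraries from WT mice and 3 libraries from *Ltf*-KO mice. The *Ltf*-KO mice lack lactoferrin, an iron-binding glycoprotein, in all cells after CRISPR-Cas9 deletion of several exons in C57/BL6N zygotes, and the mice were young adults. In both genotypes, SCs were sorted from hind leg muscle as Sca1-/CD11b-/CD34+/α7-integrin+ cells. They were collected in DMEM with fetal bovine serum, chick embryo extract and basic fibroblast growth factor, then grown for 4 days on Matrigel. The paper does not state the growth medium separately and describes no further treatment. The genes lie on chromosomes 17 (*Vegfa*, ENSMUSG00000023951), 19 (*Vegfb*, ENSMUSG00000024962), 8 (*Vegfc*, ENSMUSG00000031520, *Angpt2*, ENSMUSG00000031465, and *Nrp1*, ENSMUSG00000025810), X (*Vegfd*, ENSMUSG00000031380), 12 (*Pgf*, ENSMUSG00000004791), 15 (*Angpt1*, ENSMUSG00000022309) and 1 (*Nrp2*, ENSMUSG00000025969). The collection medium of both genotypes thus held an added angiogenic factor.

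VEGF ligands are secreted proteins that bind receptor tyrosine kinases on endothelial cells and direct the growth of blood and lymph vessels. Angiopoietins bind the endothelial receptor Tie2, encoded by *Tek*, and neuropilins are co-receptors that bind both VEGF ligands and class 3 semaphorins. In regenerating muscle, SCs lie close to capillaries, and myogenic cells are known as a source of VEGF-A.

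The values are TPM (transcripts per 1e6), in which reads are divided by gene length and each library is scaled to the same total, so levels of different genes can be set side by side but the depth is unknown. Genes at 1 TPM or more numbered 12828 to 12951 per library. The 12956 genes whose mean reached 1 TPM were tested. Across these genes, which are not independent replicates, log2(TPM + 1) correlated at a Pearson r of 0.973 to 0.978 within a genotype and 0.972 to 0.977 between genotypes. The targeted gene *Ltf* was listed at 0.02 to 0.12 TPM in WT and 0 to 0.03 TPM in *Ltf*-KO libraries, so its level does not check the genotype labels. Where libraries of a group came from is given only as far as the genotype, so p-values measure the spread between these libraries, which may be technical.

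The cultures carried the markers of myoblasts. All 10 genes of the myoblast and SC list reached a mean of 1 TPM, and their summed level was 2699 to 2775 TPM per library. The myogenic factor *Myod1* was at 748 to 816 TPM, the SC factor *Pax7* at 36.6 to 43.3 TPM and *Myog*, which marks the onset of differentiation, at 266 to 508 TPM. Genes listed as markers of other cells were also present, some at high levels. The smooth muscle and pericyte list summed to 474 to 656 TPM, most of it *Acta2*, smooth muscle actin, at 409 to 593 TPM. Whether *Acta2* came from myogenic or other cells was not tested. *Cspg4* was at 30.8 to 41.1 TPM, and 4 of the 10 genes of this list had a mean under 1 TPM. Among these were *Rgs5* at 0.12 to 0.46 TPM, *Kcnj8* at 0 to 0.14 TPM and *Myh11* at 0.17 to 0.62 TPM. Of the 13 endothelial markers, 7 had a mean under 1 TPM, and the list summed to 10.5 to 25.7 TPM, with *Pecam1* at 1.02 to 2.71 TPM and *Cdh5* at 1.79 to 4.97 TPM. The macrophage list summed to 10.1 to 18.4 TPM with *Ptprc* at 0 to 0.16 TPM, the Schwann cell list to 31.5 to 51.2 TPM with *Sox10* at 2.99 to 6.62 TPM, and the fibroblast list to 181 to 217 TPM. In the last, the collagen *Col3a1* was at 88 to 118 TPM and *Gsn* at 75.7 to 87.5 TPM, and the defining marker *Pdgfra* at 1 to 1.9 TPM. Of the 11 fibroblast markers, 3 had a mean under 1 TPM. The share of each member's RNA that came from cells other than myoblasts was not tested.

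*Vegfa* was the most abundant of the 9 genes. *Vegfa*, which encodes the main driver of blood vessel growth, was at 112, 129 and 129 TPM in WT and 123, 131 and 118 TPM in *Ltf*-KO SCs. It lay above 91.4% of the tested genes in mean level, and its lowest library was WT replicate 1. *Pgf*, which encodes placental growth factor, a ligand of VEGF receptor FLT1, came next at 32.7, 29.2 and 39.8 TPM in WT and 34.5, 39.7 and 29.1 TPM in *Ltf*-KO SCs. The mean level of *Vegfa* was 3.62-fold that of *Pgf*, and the ranges of these genes over the 6 libraries did not overlap.

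*Vegfb*, whose product also binds FLT1, was at 22.6, 23.8 and 20.4 TPM in WT and 22.1, 23.4 and 21.6 TPM in *Ltf*-KO SCs. *Vegfc*, best known as a lymphatic growth factor, was at 18.1, 17.6 and 20.4 TPM in WT and 20.2, 21.4 and 19.3 TPM in *Ltf*-KO SCs. The coefficient of variation over the 6 libraries was 5.66% for *Vegfb* and 7.42% for *Vegfc*, against 6.16% for *Vegfa*. *Vegfd*, the closest relative of *Vegfc*, was at 0.23, 0.43 and 0.38 TPM in WT and 0.37, 0.1 and 0.19 TPM in *Ltf*-KO SCs. It was under 1 TPM in all 6 libraries, so it was left out of the test and no fold change is given.

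**Figure D1:**
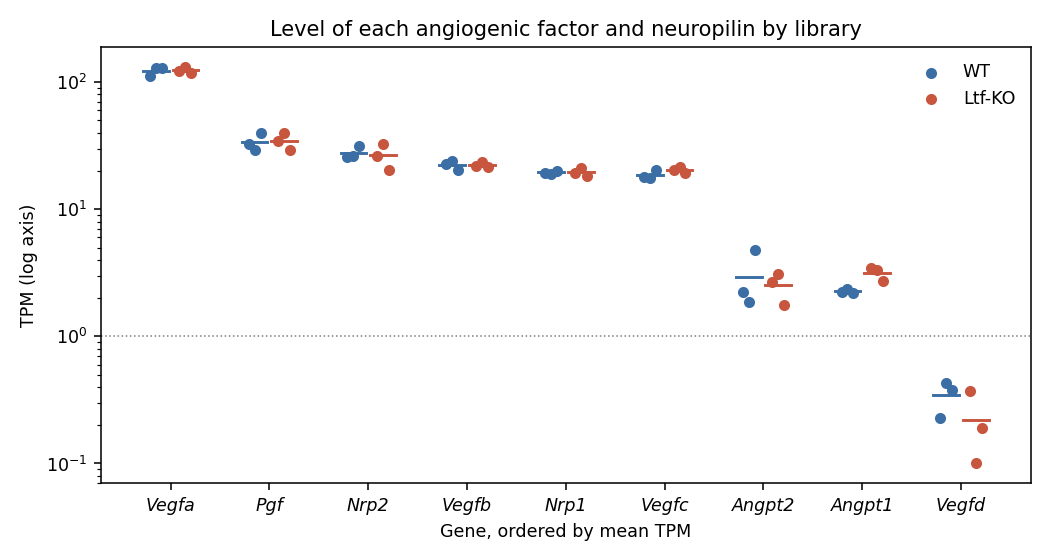
TPM (log axis) of each gene in each library, ordered by mean level, with 1 point per library (3 WT, 3 Ltf-KO) and a bar at the mean of each genotype. The dotted line is at 1 TPM. Vegfa stands alone at 112 to 131 TPM, Pgf, Nrp2, Vegfb, Nrp1 and Vegfc lie between 17.6 and 39.8 TPM, and both angiopoietins lie under 5 TPM, with Angpt1 the only gene whose genotypes do not overlap.

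In the order of mean levels, *Pgf* (34.2 ± 4.82 TPM, SD, n = 6) was followed by *Nrp2* (27.2 ± 4.55 TPM, SD, n = 6), *Vegfb* (22.3 ± 1.26 TPM, SD, n = 6), *Nrp1* (19.5 ± 1.02 TPM, SD, n = 6) and *Vegfc* (19.5 ± 1.45 TPM, SD, n = 6). Neighbours in this stretch had overlapping ranges. *Pgf* was nevertheless above *Nrp2* within 6 of 6 libraries, *Nrp2* above *Vegfb* within 5 and *Vegfb* above *Nrp1* within 6, while *Nrp1* was above *Vegfc* within only 2 of 6. A gap of 7.14-fold separated *Vegfc* from *Angpt2*, with ranges that did not overlap. *Angpt2* and *Angpt1* differed by less than their spread, with means of 2.73 and 2.71 TPM, and *Angpt1* was 9.57-fold above *Vegfd*.

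Promoter sequences were available in RefSeq for 7 of the 9 genes, on GRCm38.p6 (the submitters' processing notes name GRCm39, so these positions belong to another build than the table's). The 250 bases before the most upstream RefSeq start site were searched on both strands. GENCODE M21 places the starts of *Vegfd*, *Pgf*, *Nrp1* and *Nrp2* further upstream, so positions hold for the RefSeq start only. The letters searched were the GC box GGGCGG, the TATA box TATAAA and ACGTG, a form of the hypoxia response core. ACGTG is also part of the E-box CACGTG, and the form GCGTG was not searched. At least 1 GC box was found in 6 of the 7, against 33% of 27025 promoters of the same length. Those promoters include genes under 1 TPM in these cultures, and the share among tested genes was not computed. *Vegfd*, the gene near the floor, was the one without a GC box. It held 2 CpG dinucleotides, against 11 in *Vegfa*, 26 in *Vegfb*, 30 in *Vegfc*, 20 in *Pgf*, 11 in *Nrp1*, 32 in *Nrp2* and a median of 6 over all promoters. *Vegfd* was also the only one with the letters TATAAA, which 13% of promoters held. They ended 68 bases before its RefSeq start and lie downstream of its GENCODE M21 start. Whether they act as a TATA box was not tested. The hypoxia response core was found in 0 of the 7 and in 16.5% of promoters, and no match says only that these letters are not in this window. Of the VEGF ligands, the sequences are shown for the 4 genes with bases outside GENCODE M21 exons, so that the GC-rich stretches of *Vegfb* and *Vegfc* can be read beside *Vegfa* and the stretch of *Vegfd*, which is poor in CpG. They are given 5′ to 3′ on the strand of the gene, with GC boxes on either strand in capitals. *Vegfa* is chr17:46032378-46032627 (minus strand), *Vegfb* chr19:6987652-6987901 (minus strand), *Vegfc* chr8:54077282-54077531 (plus strand) and *Vegfd* chrX:164373272-164373377 (plus strand). The last is cut to the 106 bases before the first annotated exon, so its TATAAA match lies outside the printed stretch.
Vegfa: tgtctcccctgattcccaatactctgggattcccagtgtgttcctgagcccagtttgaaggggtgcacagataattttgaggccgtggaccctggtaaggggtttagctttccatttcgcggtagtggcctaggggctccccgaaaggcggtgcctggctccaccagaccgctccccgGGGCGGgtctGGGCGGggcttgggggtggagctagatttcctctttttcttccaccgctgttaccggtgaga
Vegfb: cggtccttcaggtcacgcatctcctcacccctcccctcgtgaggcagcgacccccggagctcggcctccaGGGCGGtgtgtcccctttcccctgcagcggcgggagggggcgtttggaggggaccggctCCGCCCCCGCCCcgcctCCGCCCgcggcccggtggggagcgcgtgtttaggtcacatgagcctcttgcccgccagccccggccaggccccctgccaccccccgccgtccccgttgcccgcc
Vegfc: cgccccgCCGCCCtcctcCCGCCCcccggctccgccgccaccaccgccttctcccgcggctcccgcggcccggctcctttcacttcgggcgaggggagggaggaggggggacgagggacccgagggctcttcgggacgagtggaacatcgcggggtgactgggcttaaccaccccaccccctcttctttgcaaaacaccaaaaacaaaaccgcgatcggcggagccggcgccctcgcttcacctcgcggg
Vegfd: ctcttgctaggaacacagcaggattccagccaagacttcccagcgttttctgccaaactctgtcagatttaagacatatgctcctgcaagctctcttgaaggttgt

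*Vegfa* had the highest and *Vegfd* the lowest mean level of the 9 genes. *Vegfb* and *Vegfc* held more CpG dinucleotides than *Vegfa* and had lower levels. Whether the base composition before the start bears on the level was not tested. Summed within a library, the 5 VEGF ligands came to 185.5, 199.97 and 209.9 TPM in WT and 199.8, 216 and 188 TPM in *Ltf*-KO SCs. *Vegfa* made up 60.3% to 64.5% of that sum in WT and 60.8% to 62.6% in *Ltf*-KO SCs. *Pgf* made up 14.6% to 19% and *Vegfb* 9.7% to 12.2% over the 6 libraries. The share of *Vegfc* was 9.74%, 8.82% and 9.7% in WT and 10.1%, 9.92% and 10.3% in *Ltf*-KO SCs, so the genotypes did not overlap. The sum averaged 198 ± 12.3 TPM (SD, n = 3) for WT, against 201 ± 14.1 TPM (SD, n = 3) for *Ltf*-KO SCs, a difference of 2.62 TPM that was smaller than the spread between replicates (two-sided exact permutation p = 0.8, adjusted p = 0.8 over 4 comparisons of sums and ratios). The share of *Vegfa* differed by -0.5 percentage points (exact permutation p = 0.8, adjusted p = 0.8). The share of *Vegfc* was 0.69 percentage points higher in *Ltf*-KO SCs (exact permutation p = 0.1). With 3 libraries against 3, 0.1 is the smallest p that this test can give. Sums, shares and ratios gave 7 such p-values in all, and adjusted over the 7, that of the *Vegfc* share was 0.7, as was that of the ratio of *Angpt1* to *Angpt2* and the other 5 were 1.

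**Figure D2:**
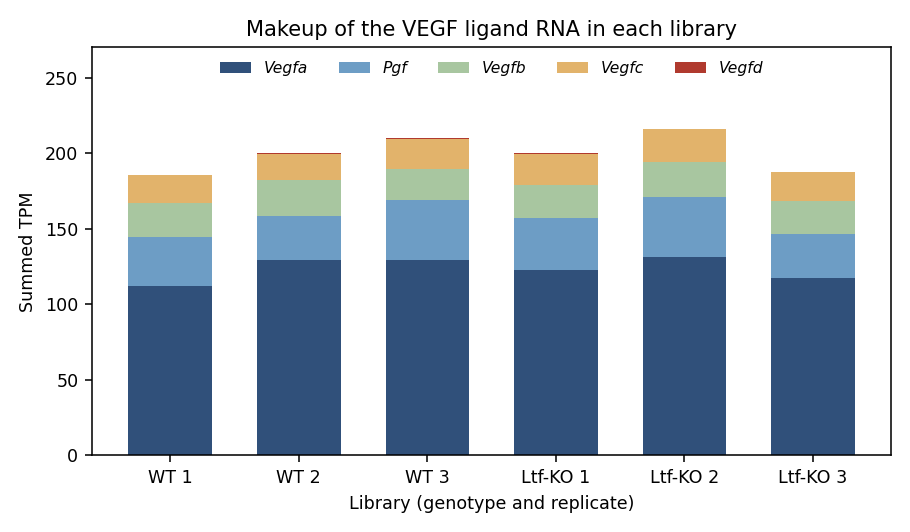
Summed TPM of the 5 VEGF ligands in each of the 6 libraries, with each colour the TPM of 1 gene. The sums lie between 185 and 216 TPM, Vegfa fills 60.3% to 64.5% of each bar, and Vegfd, at 0.43 TPM or less, is too thin to see.

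*Nrp1* and *Nrp2* carry the same domain plan and differ in the ligands they prefer. *Nrp1* was at 19.3, 19.1 and 20.2 TPM in WT and 19.3, 21.2 and 18.2 TPM in *Ltf*-KO SCs. *Nrp2* was at 25.9, 26.2 and 31.7 TPM in WT and 26.4, 32.8 and 20.2 TPM in *Ltf*-KO SCs. *Nrp2* was above *Nrp1* in 6 of 6 libraries, and its highest and lowest libraries were *Ltf*-KO replicates 2 and 3, so that a single genotype spanned its whole range. The ratio of *Nrp1* to *Nrp2* was 0.636 to 0.743 in WT and 0.645 to 0.898 in *Ltf*-KO SCs (exact permutation p = 0.7, adjusted p = 0.8, on log2 ratios).

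*Angpt1*, the agonist of Tie2, was the member whose genotypes separated. It was at 2.25, 2.34 and 2.21 TPM in WT and at 3.45, 3.3 and 2.72 TPM in *Ltf*-KO SCs, so all 3 *Ltf*-KO libraries lay above all WT libraries. The means were 2.27 ± 0.067 TPM (SD, n = 3) and 3.16 ± 0.386 TPM (SD, n = 3), a ratio of 1.39. On the log2(TPM + 1) scale, which understates the change of low genes, its log2 fold change was 0.34 (standard error 0.12, 95% confidence interval 0.067 to 0.62), with an unadjusted limma p of 0.0222 and a Benjamini-Hochberg adjusted p of 0.999 over all tested genes (at least 0.946 under the alternatives run). With a pseudocount of 0.1 the log2 fold change was 0.45. The unadjusted p was 0.0528 without WT replicate 1, 0.0563 without WT replicate 3, 0.0764 without *Ltf*-KO replicate 1, 0.0657 without *Ltf*-KO replicate 2 and 0.0535 with the replicate number as a block. *Angpt1* ranked 204 by p among the 12956 tested genes.

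*Angpt2*, a Tie2 ligand that acts as agonist or antagonist by context, was at 2.22, 1.85 and 4.75 TPM in WT and 2.67, 3.12 and 1.78 TPM in *Ltf*-KO SCs. WT replicate 3 alone held the highest value, and the genotypes overlapped. Without WT replicate 3 its log2 fold change turned from -0.11 to 0.199, and without *Ltf*-KO replicate 3 to 0.052. The ratio of *Angpt1* to *Angpt2* was 1.01, 1.26 and 0.465 in WT and 1.29, 1.06 and 1.53 in *Ltf*-KO SCs. The mean log2 ratio was 0.58 higher in *Ltf*-KO SCs (exact permutation p = 0.2, adjusted p = 0.8), and 0.17 higher without WT replicate 3.

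Of the 8 genes tested between genotypes, 0 had a limma adjusted p under 0.05, as did 0 of all 12956 tested genes (0%). An unadjusted p under 0.05 was reached by 1 of the 8 (12.5%), *Angpt1*, against 3.78% of all tested genes in either direction and 2.01% higher in *Ltf*-KO SCs. The libraries of the genotypes did not overlap for 1 of the 8, against 8.46% of all tested genes in either direction and 4.73% higher in *Ltf*-KO SCs. Both shares rest on a single gene. The median log2 fold change was 0.0074 over the 8 and 0.011 over all tested genes, and the median absolute log2 fold change was 0.059 over the 8 and 0.058 over all tested genes. The 95% confidence intervals bound what these libraries could show. For *Vegfa* the log2 fold change was 0.0071 with an interval from -0.16 to 0.18, for *Vegfb* 0.0077 (-0.16 to 0.18), for *Nrp1* -0.00036 (-0.16 to 0.16) and for *Vegfc* 0.12 (-0.058 to 0.29). The intervals of *Pgf* (-0.33 to 0.37), *Nrp2* (-0.51 to 0.32) and *Angpt2* (-0.82 to 0.598) were wider. The signs of *Vegfa* and *Vegfb* turned with median-of-ratios scaling, and that of *Vegfb* with quantile normalization.

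**Figure D3:**
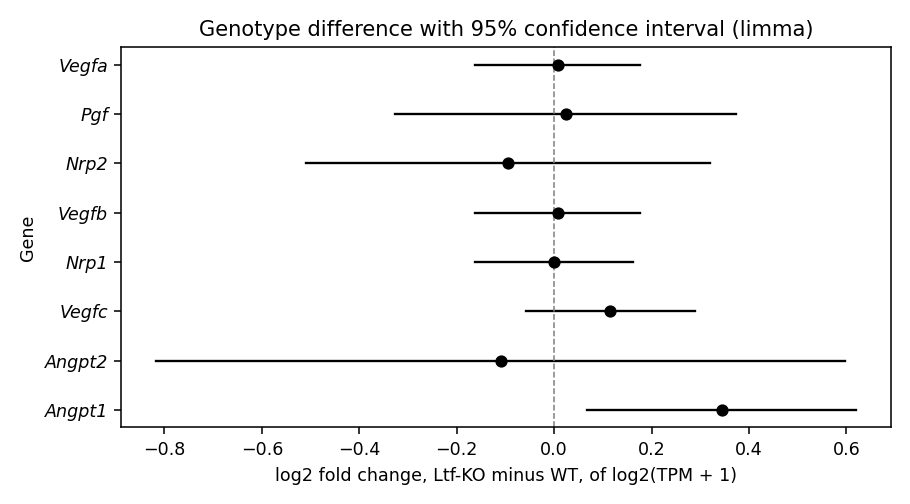
Difference between Ltf-KO and WT on the log2(TPM + 1) scale for the 8 tested genes, with points for the limma estimate and bars for its 95% confidence interval (n = 3 per genotype). Only the interval of Angpt1 (0.067 to 0.62) leaves out 0, and that of Angpt2 is the widest.

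The members differed in how much they varied from library to library, whatever the genotype. *Pgf*, *Nrp2* and *Angpt2* had coefficients of variation of 14.1%, 16.7% and 40.7%, against medians of 6.29% for tested genes with a mean of 10 to 100 TPM and 16.1% for those of 1 to 10 TPM. For these 3 genes the same libraries stood at the ends. WT replicate 3 and *Ltf*-KO replicate 2 were the highest and *Ltf*-KO replicate 3 was the lowest. *Nrp1* had the same highest and lowest libraries with a narrower spread (5.24%). *Vegfb* went another way, with its highest value in WT replicate 2 and its lowest in WT replicate 3.

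Some marker lists shared libraries at the ends with these genes, and others did not. The summed endothelial markers were 13.9, 10.5 and 25.7 TPM in WT and 22.4, 23.8 and 12.3 TPM in *Ltf*-KO libraries. They were thus highest in WT replicate 3 and *Ltf*-KO replicate 2, but lowest in WT replicate 2. The summed differentiation genes, led by *Mylpf*, *Acta1* and *Tnnc1* of the contractile apparatus, were 3717, 4761 and 3488 TPM in WT and 4076, 3568 and 5604 TPM in *Ltf*-KO libraries. They were lowest in the libraries where *Pgf*, *Nrp2* and *Angpt2* were highest, and highest in *Ltf*-KO replicate 3, where those genes were lowest. The summed Schwann cell markers were 31.5, 41.5 and 51.2 TPM in WT and 43.3, 50.2 and 38.3 TPM in *Ltf*-KO libraries. The smooth muscle and pericyte list was lowest in WT replicate 3 and highest in *Ltf*-KO replicate 3. The fibroblast list was highest in *Ltf*-KO replicate 1 and the macrophage list in WT replicate 1. The myoblast and SC list spanned a range of 1.03-fold, the endothelial list 2.44-fold and the differentiation list 1.61-fold. Fewer cells of a type and less RNA per cell cannot be told apart in such bulk libraries, and the part of these cells in the levels of *Pgf*, *Nrp2* and *Angpt2* was not tested.

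**Figure D4:**
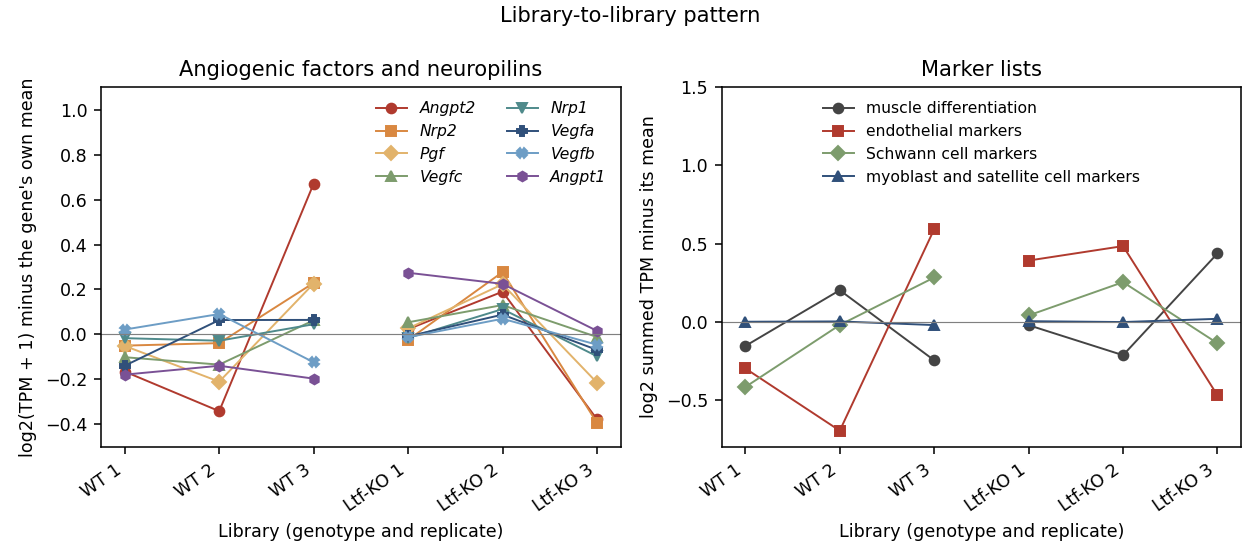
Left, log2(TPM + 1) of each of the 8 tested genes minus its own mean over the 6 libraries. Right, log2 of the summed TPM of 4 marker lists minus its mean. Points are single libraries, and lines only join the points of a genotype. Angpt2, Nrp2 and Pgf are high in WT 3 and Ltf-KO 2, where endothelial markers are high and differentiation genes low. Vegfa, Vegfb, Vegfc and Nrp1 stay within 0.14 of their means.

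The genes whose pattern over the 6 libraries was most like that of a member are given as a description, since 108 to 277 tested genes had a Pearson r above 0.9 with each member examined. For *Pgf* these were *Nr4a1* (r = 0.993), an immediate early nuclear receptor, the endothelial adhesion molecule *Pecam1* (r = 0.992) and *Ctso* (r = 0.991), a cathepsin. For *Vegfa* they were Gm42793 (r = 0.989), *Ninl* (r = 0.985) and *Ptdss1* (r = 0.985), which makes phosphatidylserine. For *Angpt1* they were *Dcaf5* (r = 0.988), *Tmem200a* (r = 0.985) and *Hmgxb4* (r = 0.981). All points share the same 6 libraries.

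The receptors of these ligands were scarce in the cultures. *Kdr*, which encodes the main VEGF receptor of endothelial cells, was at 1.35, 1.51 and 1.83 TPM in WT and 1.31, 1.64 and 1.44 TPM in *Ltf*-KO SCs, with a log2 fold change of -0.055. The other 4 receptors had means under 1 TPM, with *Flt1* at 0.28 to 0.54 TPM and *Tek* at 0.21 to 0.81 TPM. The 5 receptors together summed to 2.29 to 3.78 TPM, against 185 to 216 TPM for the VEGF ligands. The highest receptor sums were again in WT replicate 3 (3.78 TPM) and *Ltf*-KO replicate 2 (3.77 TPM). Neuropilin partners were better represented. Of 12 class 3 semaphorins and plexins 9 were tested, and none reached an unadjusted limma p under 0.05 in either direction. *Plxna1* was at 73.7 to 84.4 TPM and *Plxnd1* at 42.7 to 69.8 TPM, both receptors for semaphorins, and *Sema3e*, a ligand of the latter, at 32.5 to 36.7 TPM.

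Among 24 other secreted angiogenic factors, 20 were tested, with 0 at an adjusted p under 0.05. An unadjusted p under 0.05 was reached by 1 of the 20, higher in *Ltf*-KO SCs, against 3.78% of all tested genes in either direction. This was *Fgf2*, which encodes basic fibroblast growth factor, at 4.18, 4.15 and 5.07 TPM in WT and 6.98, 9.6 and 6.04 TPM in *Ltf*-KO SCs (log2 fold change 0.63, standard error 0.16, with an unadjusted limma p of 0.00752 and an adjusted p of 0.999 over all tested genes). Its genotypes did not overlap, nor did those of *Pdgfa*, a platelet-derived growth factor named after its values were seen, at 67 to 69.6 TPM in WT and 70.8 to 79.7 TPM in *Ltf*-KO SCs. These were 2 of the 20, against 8.46% of all tested genes without overlap in either direction. Of the 20 tested genes 16 had a log2 fold change above 0, against 55.7% of all tested genes, with a median of 0.046 against 0.011. The list summed to 1794 to 1873 TPM in WT and 1885 to 1903 TPM in *Ltf*-KO SCs, with no overlap, and this sum was not tested. Its largest parts, *Igf2* and *Ccn1*, each overlapped between genotypes. *Igf2* averaged 561 TPM in WT and 590 TPM in *Ltf*-KO SCs, and *Ccn1* 515 TPM in WT and 502 TPM in *Ltf*-KO SCs. The most abundant factors of the list were *Igf2* at 488 to 726 TPM, *Ccn1*, a matricellular protein, at 469.8 to 529.7 TPM and the chemokine *Cxcl12* at 160 to 183 TPM, all above *Vegfa*. All 11 tested genes of the 15 secreted angiogenesis inhibitors had a log2 fold change above 0, with a median of 0.086 against 0.011 for all tested genes, of which 55.7% were above 0, and 0 reached an unadjusted p under 0.05. The matrix glycoproteins *Sparc* (905 to 1010 TPM) and *Thbs1* (522 to 768 TPM) and the serpin *Serpinf1* (575 to 725 TPM) led this list. The one-sided sign was not particular to it, since all 15 muscle differentiation genes were also above 0, with a median of 0.15.

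*Vegfa* is a target of the hypoxia-inducible factors. Of 23 genes of the HIF and hypoxia response list 22 were tested, 13 with a log2 fold change above 0 and 9 below, and none reached an unadjusted p under 0.05. Their median log2 fold change was 0.011, the same as over all tested genes. The glycolytic enzymes *Ldha* (1400 to 1518 TPM) and *Pgk1* (841 to 927 TPM) and the oxygen sensor *Egln3* (48.2 to 54.6 TPM) were the most abundant of the list, with summed levels of the list at 2715 to 2877 TPM per library, a range of 1.06-fold.

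**Figure D5:**
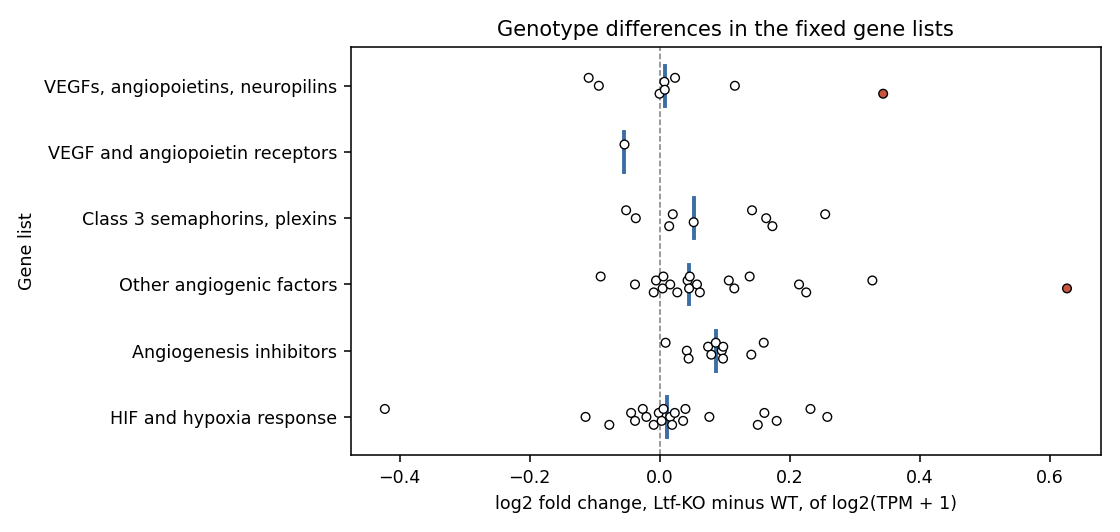
log2 fold change between Ltf-KO and WT on the log2(TPM + 1) scale for the tested genes of the 9 members and of the 5 pathway lists (marker lists are not plotted), with 1 circle per gene and a bar at the list's median. Filled circles have an unadjusted limma p under 0.05, which among the plotted genes are Angpt1 and Fgf2, and vertical scatter within a list only separates the circles.

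Markers of other cells are given beside *Angpt1*, and none had an adjusted p under 0.05. In the fibroblast list all 8 tested genes had a log2 fold change above 0, as did 15 of 15 differentiation genes and 55.7% of all tested genes, and *Mfap5*, a microfibril protein, was at 1.24, 1.53 and 2.24 TPM in WT and 3.78, 3.24 and 2.66 TPM in *Ltf*-KO SCs (unadjusted limma p of 0.00884, adjusted p of 0.999). *Pdgfrb*, a receptor of pericytes and fibroblasts, was at 3.73, 3.89 and 4.71 TPM in WT and 6.95, 7.51 and 4.8 TPM in *Ltf*-KO SCs (unadjusted limma p of 0.0171, adjusted p of 0.999). *Egfl7*, an endothelial secreted protein, was at 2.32, 1.91 and 3.3 TPM in WT and 5.74, 4.61 and 3.29 TPM in *Ltf*-KO SCs (unadjusted limma p of 0.0204, adjusted p of 0.999). The unadjusted p of *Pdgfrb* rose to at most 0.0579 and that of *Egfl7* to at most 0.0677 under the alternatives. Like *Angpt1*, these genes were lowest in *Ltf*-KO replicate 3 among the *Ltf*-KO libraries. Other genes of the fibroblast and the smooth muscle and pericyte lists went the other way. *Ly6a*, *Abcc9*, *Notch3* and *Acta2* were highest in *Ltf*-KO replicate 3 among the *Ltf*-KO libraries, as was the summed smooth muscle and pericyte list. The whole lists overlapped between genotypes, with the fibroblast list at 181 to 189 TPM in WT and 183 to 217 TPM in *Ltf*-KO SCs, the smooth muscle and pericyte list at 474 to 560 and 528 to 656 TPM, and the endothelial list at 10.5 to 25.7 and 12.3 to 23.8 TPM. The defining fibroblast marker *Pdgfra* was at 1 to 1.35 TPM in WT and 1.11 to 1.9 TPM in *Ltf*-KO SCs. In the endothelial list 4 of 6 tested genes and in the smooth muscle and pericyte list 5 of 6 had a log2 fold change above 0. In the macrophage list 0 of 3 did, with a median of -0.11, and *Cd68* was at 3.56 to 3.98 TPM in WT and 3.12 to 3.52 TPM in *Ltf*-KO SCs. The part of these cells in the level of *Angpt1* was not tested.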

How the data were processed

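RNA from 6 cultures of sorted SCs (3 WT, 3 *Ltf*-KO) was sequenced by a company, which extracted and normalized the data by its own protocol. The authors deposited TPM values of 55416 genes, with 1 column per library, each summing to 993650 to 994356, and the unit was taken from these values. The submitters' processing notes name the build GRCm39. The aligner, counting tool and annotation release are not given in the sources used here. TPM keeps no depth and does not separate splice forms, so precision was judged from the spread between replicates. Libraries were assigned to genotypes from the sample labels.

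Genotypes were compared with limma 3.58.1 in R 4.3.3 (lmFit and eBayes with a trend, two-sided) on log2(TPM + 1), keeping the 12956 genes (23.4%) whose mean reached 1 TPM, with Benjamini-Hochberg adjustment over all of them and a threshold of 0.05. The fit was tested on simulated data. Sums and ratios (pseudocount 0.1) were compared by two-sided exact permutation tests in scipy 1.17.1. Alternatives were a pseudocount of 0.1 (1 for ratios), no filter, a mean of at least 10 TPM, quantile normalization, median-of-ratios scaling, a replicate block and each library left out. The members and gene lists were chosen with earlier results of these data known. Genes named are the members, *Ltf*, and from each list mainly the 3 most abundant, the defining markers and all at an unadjusted p under 0.05, plus the 3 genes most like *Vegfa*, *Pgf* and *Angpt1*. *Kdr*, *Tek* and *Tie1* are in both the receptor and the endothelial list. Promoters are from RefSeq on GRCm38.p6.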

Additional observations from a re-analysis of the deposited data

How the results depend on the processing

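Of all tested genes, 0 had an adjusted p under 0.05 from limma under each alternative that kept all libraries, and 0 to 7 with one library left out (0 without WT replicate 1, 7 without WT replicate 2, 2 without WT replicate 3, and 6, 2 and 3 without *Ltf*-KO replicates 1, 2 and 3). No alternative gave a member an adjusted p under 0.05 (0 of them). The number of members at an unadjusted p under 0.05 was 1, and 0 when a mean of 10 TPM was required, where neither angiopoietin is tested, and 0 to 1 with one library left out. Without WT replicate 3 the 1 member was *Vegfc* (unadjusted limma p of 0.0431) in place of *Angpt1*. The log2 fold changes of *Angpt1* (0.29 to 0.42 with one library left out) and *Vegfc* (0.077 to 0.18) kept their sign under each alternative run. With one library left out, that of *Vegfa* ranged from -0.061 to 0.043, *Vegfb* from -0.052 to 0.055, *Pgf* from -0.082 to 0.14, *Angpt2* from -0.31 to 0.199, *Nrp1* from -0.057 to 0.048 and *Nrp2* from -0.26 to 0.0796. With median-of-ratios scaling *Vegfa* was at -0.0050 and *Vegfb* at -0.0040, and with quantile normalization *Vegfb* was at -0.0071. With one library left out, the difference in summed VEGF ligands ranged from -4.74 to 9.34 TPM, in the *Vegfa* share from -1.38 to 0.699 percentage points, in the log2 ratio of *Angpt1* to *Angpt2* from 0.17 to 0.87 and of *Nrp1* to *Nrp2* from -0.032 to 0.21. The cause was not tested. Genes at an unadjusted p under 0.05 numbered 490, and 890 with no filter and 281 when a mean of 10 TPM was required, which changed the number of genes tested. The labels do not say whether the replicate numbers pair the libraries. Deviations of same-numbered libraries correlated at -0.041, -0.058 and -0.088 across genes. No pairing was seen in these values, which cannot exclude a shared sort or day. With the replicate block, 0 members and 380 genes had an unadjusted p under 0.05. TPM keeps no read counts, so the reads behind *Vegfd* and the angiopoietins are unknown.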
